A study of Homo sapiens with 36 samples.

Results

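The 6 total RNA libraries described here, of 36 libraries in the series, come from WiT49 cells after 2 weeks of cyclic exposure to actinomycin D (actD) or to its vehicle, dimethyl sulfoxide (DMSO). They are the 6 libraries deposited together for the 2-week RNA, 3 per group. WiT49 is an established line from an anaplastic Wilms tumor, a kidney cancer of childhood. Cells went through 2 cycles of 7 days, each with 3 days in medium holding 2 nM actD or vehicle and then 4 days in medium with neither, so both groups ended on drug-free medium. No genetic change separates the groups, and all 6 libraries come from 1 cell line. The series also holds 72 h and 6 h RNA and footprints of ribosomes on RNA, used here only for comparison.

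The labels of these 6 libraries contradict each other. Each library's own name, which is also its column name in the deposited data, gives 1 treatment, while its title and its treatment entry give the other. The groups below follow the library names and are written "named actd" and "named dmso". Every difference is named actd minus named dmso and would change sign if the titles were followed. The labels do not say that the replicates were separate cultures, so p-values measure only the spread between these libraries. They name 2 RNA extraction kits and 2 library kits without assigning them, so a batch of either kind cannot be told apart from the groups. In bulk RNA, fewer cells of a kind and less of an RNA per cell cannot be told apart either.

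Actinomycin D slips between the bases of DNA, preferring GC-rich sequence, and blocks RNA polymerases as they move along it. Ribosomal RNA synthesis by RNA polymerase I is the most sensitive step at low dose. The drug is a mainstay of Wilms tumor chemotherapy and is given in repeated cycles. Cells that divide after exposure need the genes of DNA replication and mitosis, which E2F factors and the DREAM complex regulate in the cell cycle. Amino acid supply is under the transcription factor ATF4, sterol supply under SREBP factors, and the mitochondrial genome is read by its own polymerase.

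Total counts per library ranged from 49795865 to 59091446. The log2 CPM values (counts scaled to the size of each library) of any pair of libraries correlated across genes with r between 0.958 and 0.975. The kidney and tumor genes WT1 (28.6 to 37.6 CPM), IGF2 (1020 to 1624 CPM) and OSR1 were present, while 7 of 12 nephron progenitor markers, SIX2, SALL1, EYA1, PAX2, PAX8, CITED1 and HOXD11, stayed under 1 CPM in every library. Epithelial KRT8 and KRT18 and mesenchymal VIM and COL3A1 were high, with COL1A2 at 0. Defining markers of blood (CD3E, LYZ, HBB), endothelium (PECAM1, CDH5) and skeletal muscle (MYOD1, MYOG) were listed at 0 in all 6 libraries, but DES (8.50 to 10.7 CPM), a muscle filament, and KDR (10.9 to 18.3 CPM), an endothelial receptor, were present. The summed markers overlapped between groups, at 9.22 to 11.2 against 9.68 to 10.6 CPM for muscle and 14.2 to 18.2 against 10.9 to 18.3 CPM for endothelium.

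No gene passed the test. Of 21137 genes, 0 (0%) had an adjusted p under 0.05 in the quasi-likelihood fit of edgeR after Benjamini-Hochberg correction, and the smallest adjusted p was 0.0613. At an unadjusted p under 0.05 there were 882 genes (4.17%) higher and 1087 genes (5.14%) lower in named actd. DESeq2 called 189 genes (0.894%), 85 higher and 104 lower, of which 187 also had an unadjusted edgeR p under 0.05. In the description below, "higher" and "lower" therefore give the direction of a value and not a change that passed the test, and members of a gene list are counted at the unadjusted p under 0.05. Groups did not overlap, with every named actd library above every named dmso library, in 1661 genes (7.86%), and the reverse held in 1655 genes (7.83%). The median difference over all tested genes was -0.02 on the log2 scale.

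Promoters of 5 of the gene groups described below were searched for 1 known motif each, and the windows shown are those of up to 2 members per group with the smallest p among members holding the motif, together with INSIG1, the gene with the smallest p on the higher side among those with at least 5 CPM in 1 group. Each is the 250 bases before the start site in RefSeq (GRCh38.p14), 5′ to 3′ on the gene's strand, with matches on either strand in capitals. The sterol element TCACNCCAC was found in 1 of 22 matched promoters of cholesterol genes (4.55%), against 0.875% of 27305 promoters. Of the 2 matched members at the unadjusted threshold, 0 held it. The first window is that of INSIG1 (chr7:155297628-155297877, plus strand), searched for this sterol element and without a match.
INSIG1: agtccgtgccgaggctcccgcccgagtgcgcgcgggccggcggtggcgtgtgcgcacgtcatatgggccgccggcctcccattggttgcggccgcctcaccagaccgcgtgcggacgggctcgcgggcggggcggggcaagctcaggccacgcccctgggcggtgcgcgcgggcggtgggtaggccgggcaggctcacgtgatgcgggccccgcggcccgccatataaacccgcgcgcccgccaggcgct

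The ATF4 element TGATGNAA was found in 4 of 21 matched promoters of ATF4 target genes (19.05%), against 3.19% of 27305 promoters. Among the 6 matched members that were lower at the unadjusted threshold, 1 held it, ASNS (chr7:97872409-97872658, minus strand), asparagine synthetase.
ASNS: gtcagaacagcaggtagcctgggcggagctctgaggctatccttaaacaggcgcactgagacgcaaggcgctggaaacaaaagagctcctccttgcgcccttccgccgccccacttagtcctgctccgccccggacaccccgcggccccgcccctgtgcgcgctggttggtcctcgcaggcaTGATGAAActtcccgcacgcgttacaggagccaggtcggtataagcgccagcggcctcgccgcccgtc

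The E2F site TTTNGCGC was found in 8 of 31 matched promoters of DNA replication genes (25.8%), against 1.54% of all promoters. Of the 12 matched members that were lower, 4 held it, among them POLA1 (chrX:24693668-24693917, plus strand) and POLE (chr12:132687343-132687592, minus strand), catalytic subunits of DNA polymerases alpha and epsilon.
POLA1: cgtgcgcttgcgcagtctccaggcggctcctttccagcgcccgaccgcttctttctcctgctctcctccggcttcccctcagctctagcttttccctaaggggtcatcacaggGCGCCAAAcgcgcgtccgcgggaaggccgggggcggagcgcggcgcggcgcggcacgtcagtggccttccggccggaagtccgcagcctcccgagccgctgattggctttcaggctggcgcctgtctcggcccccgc
POLE: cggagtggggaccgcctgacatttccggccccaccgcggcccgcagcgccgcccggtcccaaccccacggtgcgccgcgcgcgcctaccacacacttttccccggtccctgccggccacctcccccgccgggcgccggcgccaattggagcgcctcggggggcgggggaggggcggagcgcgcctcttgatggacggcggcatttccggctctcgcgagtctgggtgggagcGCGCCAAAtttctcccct

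The CHR element TTTGAA, bound by the DREAM complex, was found in 19 of 31 matched promoters of mitosis genes (61.3%), against 13.6% of all promoters. Of the 7 matched members that were lower, 6 held it, among them MKI67 (chr10:128126424-128126673, minus strand), the proliferation antigen Ki-67, with 2 matches, and ASPM (chr1:197146670-197146919, minus strand), a spindle pole protein.
MKI67: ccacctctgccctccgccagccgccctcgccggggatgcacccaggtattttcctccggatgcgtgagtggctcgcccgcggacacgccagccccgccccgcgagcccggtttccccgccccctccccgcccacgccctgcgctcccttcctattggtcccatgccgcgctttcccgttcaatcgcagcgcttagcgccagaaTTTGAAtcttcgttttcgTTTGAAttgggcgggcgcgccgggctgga
ASPM: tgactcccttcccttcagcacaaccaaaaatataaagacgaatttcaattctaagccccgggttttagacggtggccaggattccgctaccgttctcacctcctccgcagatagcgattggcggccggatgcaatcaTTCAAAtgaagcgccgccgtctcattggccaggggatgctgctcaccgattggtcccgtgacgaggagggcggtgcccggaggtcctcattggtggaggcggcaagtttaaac

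The TEAD site GGAATG, read by the partners of YAP and TAZ, was found in 3 of 21 matched promoters of mesenchymal and matrix genes (14.3%), against 11.9% of all promoters. Of the 4 matched members that were higher, 2 held it, CCN2 (chr6:131951373-131951622, minus strand), listed in the data under its older symbol CTGF and with 3 matches, and THBS1 (chr15:39580829-39581078, plus strand).
CCN2: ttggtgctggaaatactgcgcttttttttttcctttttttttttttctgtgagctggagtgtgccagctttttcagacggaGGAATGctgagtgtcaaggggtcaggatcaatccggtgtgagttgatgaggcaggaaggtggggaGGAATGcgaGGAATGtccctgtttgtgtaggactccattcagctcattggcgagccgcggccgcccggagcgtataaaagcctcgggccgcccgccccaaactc
THBS1: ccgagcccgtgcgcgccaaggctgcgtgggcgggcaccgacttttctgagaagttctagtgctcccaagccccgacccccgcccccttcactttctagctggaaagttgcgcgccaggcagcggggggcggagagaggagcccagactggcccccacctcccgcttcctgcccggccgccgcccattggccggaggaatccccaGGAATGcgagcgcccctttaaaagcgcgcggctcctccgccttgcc
A match is a description of these letters, and a window without one says nothing about the factor.

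Among the protein-coding genes with the smallest p, INSIG1, the membrane protein that holds SREBP back when sterols are plentiful (chr7:155297776-155310235, GRCh38, GENCODE release 29), led the higher side. It stood at 48.8, 44.1 and 51.1 CPM in the named actd libraries and at 24.1, 23.4 and 22.7 CPM in the named dmso libraries. The groups were far apart and tight within themselves. The log2 difference was 1.04 ± 0.11 (SE, n = 3 per group) with an edgeR adjusted p of 0.0613. DESeq2 gave an adjusted p of 3.07e-11, and over 16 alternatives the adjusted p ran from 3.07e-11 to 0.736.

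RNF11, a RING-finger adaptor of ubiquitin ligases, was at 91.4, 95.2 and 110.02 CPM in named actd and at 43.8, 46.8 and 59.1 CPM in named dmso, a difference of 0.99 ± 0.14 (adjusted p = 0.13 by edgeR). APEX1, the main endonuclease of base excision repair, was at 108.9, 75.0 and 69.1 CPM against 29.2, 34.9 and 43.4 CPM, a difference of 1.24 ± 0.21 (adjusted p = 0.197). ZNF419, a zinc-finger gene, was at 7.71, 16.1 and 13.2 CPM against 3.86, 4.59 and 3.44 CPM. For each of these genes every named actd library lay above every named dmso library, and within named actd ZNF419 and APEX1 varied most.

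FMOD (fibromodulin, a collagen-binding proteoglycan), SLITRK5 (a synaptic adhesion protein), RPL14 (a large-subunit ribosomal protein) and PPIC (a cyclophilin of the secretory pathway) were also higher without overlap, by 0.82, 0.92, 0.81 and 0.58 on the log2 scale. S100A13, a calcium-binding protein, was at 54.6, 58.1 and 58.3 CPM in named actd and at 28.8, 33.7 and 30.3 CPM in named dmso. The neighbouring AL162258.1 was at 5.11, 5.53 and 3.84 CPM against 13.1, 11.97 and 11.6 CPM. These neighbours went in opposite directions, and they share 5029 bases on the same strand, so how reads were assigned between them bears on both values and was not tested.

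On the lower side LPAR6, a receptor for lysophosphatidic acid (chr13:48389567-48444704), was at 2.66, 2.30 and 3.25 CPM in named actd and at 8.97, 9.32 and 8.47 CPM in named dmso. The difference was -1.71 ± 0.17 (adjusted p = 0.0613 by edgeR). PGPEP1, an enzyme that trims pyroglutamate from peptides (chr19:18340587-18369950), was at 3.19, 4.17 and 5.60 CPM against 18.2, 18.3 and 14.007 CPM, a difference of -1.97 ± 0.22 (adjusted p = 0.0613). Both sets of libraries were well separated, and PGPEP1 had the largest difference of the 20 protein-coding genes chosen by smallest p.

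RYR2, the calcium release channel best known from heart muscle (chr1:237042205-237833988), was at 6.52, 6.90 and 6.96 CPM against 17.1, 14.4 and 14.6 CPM, a difference of -1.18 ± 0.13 (adjusted p = 0.0613 by edgeR). SRRM2, a scaffold of nuclear speckles, was at 50.7, 47.2 and 44.7 CPM against 149, 90.5 and 121 CPM. SND1, a nuclease and transcription coactivator, was at 124, 89.3 and 99.5 CPM against 199, 204 and 214 CPM. The named dmso libraries were the higher ones throughout, and SRRM2 had the widest spread among them.

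KIF26B (a kinesin family member), SOCS2 (a suppressor of cytokine signalling), GFRA1 (a receptor for GDNF in kidney development), RPL22L1 (a paralog of a ribosomal protein) and PDE5A (a cyclic GMP phosphodiesterase) were lower by 1.03, 1.20, 0.91, 0.86 and 0.84 on the log2 scale, with no overlap between groups. CLDN22, a claudin, had 93, 89 and 71 counts in named actd and was listed at 0 in all 3 named dmso libraries and in all 6 libraries at 72 h. No fold is given for it. The unnamed gene ENSG00000282827.2 was at 10.1, 3.37 and 3.68 CPM against 0.715, 0.492 and 0.233 CPM.

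**Figure D1:**
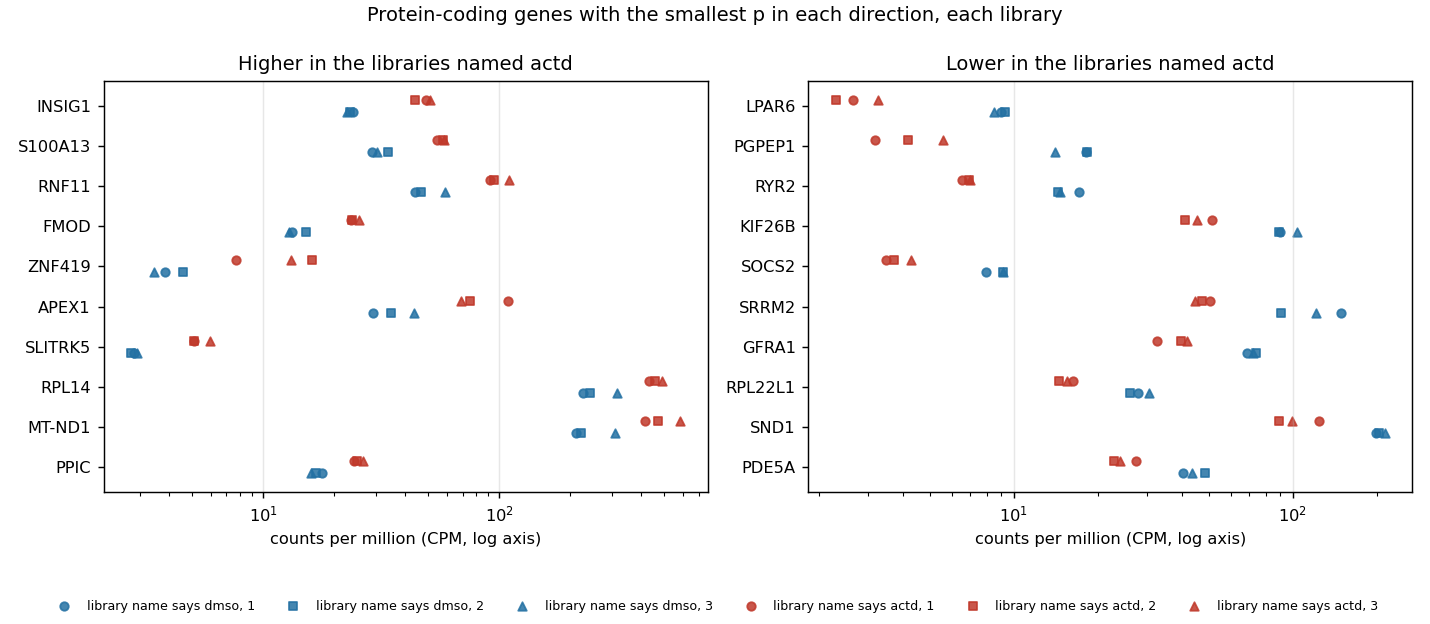
CPM on a log axis for the 10 protein-coding genes in each direction with the smallest p, among genes with at least 5 CPM in 1 group and groups that do not overlap. Each point is a library (red, named actd, n = 3; blue, named dmso, n = 3; the marker shape gives the replicate number); INSIG1 sits at 44.1 to 51.1 CPM against 22.7 to 24.1 CPM, and PGPEP1 at 3.19 to 5.60 CPM against 14.007 to 18.3 CPM.

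RNAs read from the mitochondrial genome had the median farthest from 0 of the 28 gene lists. All 15 tested members, 13 mRNAs of respiratory chain subunits and 2 ribosomal RNAs, were higher in named actd, with a median log2 difference of 0.97 against -0.02 over all tested genes. At the unadjusted threshold 12 of 15 were higher and 0 lower (background 4.17% and 5.14%), and DESeq2 called 11. The median of the mitochondrial chromosome's genes was 0.98, while the median of every other chromosome lay between -0.05 and 0.03.

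MT-ND3, a small subunit of complex I, was at 26.04, 25.9 and 51.9 CPM in named actd and at 11.97, 11.9 and 16.6 CPM in named dmso. Its difference was the largest of the list, 1.36 ± 0.29 (adjusted p = 0.333 by edgeR). MT-CYB, the cytochrome b of complex III, was at 793, 1121 and 1405 CPM against 609, 472 and 613 CPM, a difference of 0.97 ± 0.22 (adjusted p = 0.351). In all 12 members that reached the unadjusted threshold the named actd library 3 was the highest of its group. Among all 882 genes higher at that threshold it was the highest of its group in 464.

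MT-CO1, the catalytic subunit of cytochrome c oxidase, was at 4043, 5320 and 6854 CPM against 3474, 3420 and 3337 CPM. The mitochondrial ribosomal RNAs made up 25.8%, 29.1% and 31.2% of all counts in named actd and 22.9%, 21.4% and 19.6% in named dmso. Within protein-coding counts alone, mitochondrial mRNAs held 1.69%, 2.17% and 2.75% against 1.44%, 1.37% and 1.34%. The groups did not overlap in either share. All 21 tested mitochondrial tRNA genes were above 0, with a median of 0.60. At the unadjusted threshold 8 were higher and 0 lower (background 4.17% and 5.14%). MT-TL1 led them, at 35.5, 39.1 and 44.2 CPM against 18.8, 20.4 and 21.8 CPM. MT-TC, the mitochondrial cysteine tRNA, did not pass the filter on low counts at 2 weeks. It had 2 counts in every named actd library and 2, 585 and 1007 in named dmso, so only named dmso libraries 2 and 3 were high, and at 72 h it had 1, 1551 and 432 in actD and 1 in each DMSO library. MTND1P23, a nuclear copy of a mitochondrial gene that can share its reads, was higher by 0.99. Respiratory chain subunits encoded in the nucleus had a smaller median, 0.08. Of 44 tested, 4 were higher and 1 lower at the unadjusted threshold (background 4.17% and 5.14%). Above 0 lay 33 of the 44, beside 9886 of all 21137 genes. Without overlap 7 were higher and 1 lower (7.86% and 7.83% over all tested genes). The member that was lower at the unadjusted threshold was NDUFV1, the flavoprotein of complex I. It was at 38.8, 47.1 and 43.4 CPM against 63.2, 80.2 and 53.3 CPM.

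**Figure D2:**
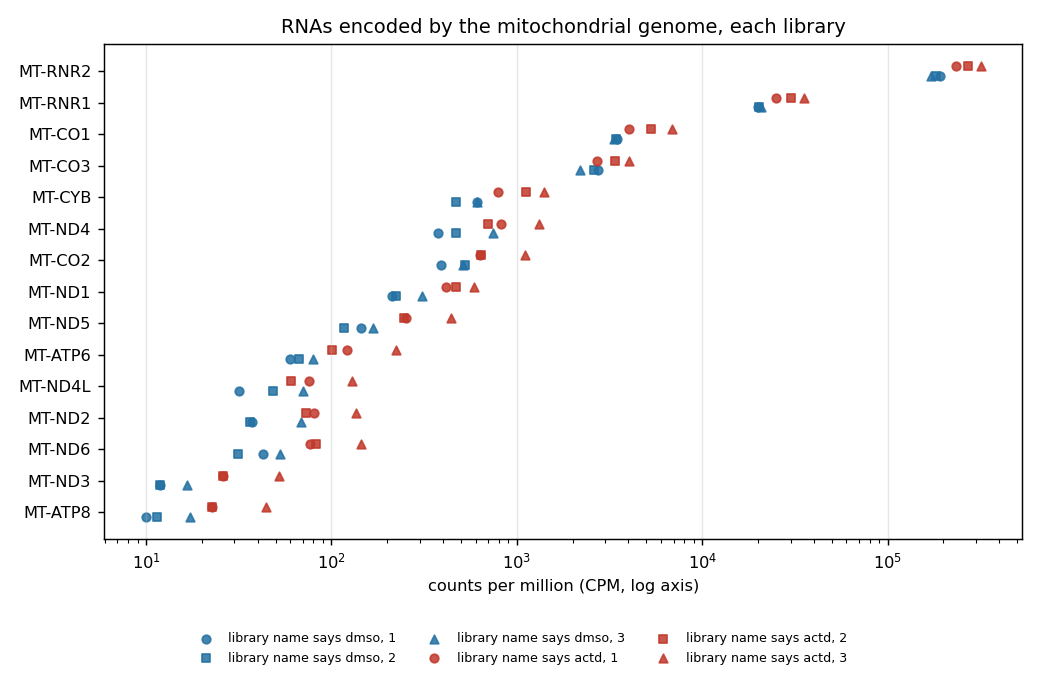
CPM on a log axis for the 15 RNAs of the mitochondrial genome, ordered by their level in named dmso, 1 point per library (red, named actd, n = 3; blue, named dmso, n = 3). The red triangles, named actd library 3, lie farthest to the right, as for MT-ND3 at 51.9 CPM against 11.9 to 16.6 CPM in named dmso.

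Genes of DNA replication were lower. Of 36 tested, 13 were lower at the unadjusted threshold and 0 higher (background 5.14% and 4.17%), 29 lay below 0, and the median was -0.18. MCM2, part of the helicase that opens replication origins, was at 57.6, 23.0 and 35.3 CPM in named actd and at 69.7, 72.5 and 81.3 CPM in named dmso, a difference of -0.95 ± 0.28 (adjusted p = 0.418 by edgeR). UHRF1, which keeps DNA methylation through replication, was at 25.4, 21.6 and 25.2 CPM against 38.6, 34.9 and 44.4 CPM, with a difference of -0.71 ± 0.13 (adjusted p = 0.278).

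For MCM2 and UHRF1 the named actd libraries all lay below the named dmso libraries, as in 14 of the 36 (7.83% over all tested genes). ORC1, a subunit of the origin recognition complex, was at 14.4, 10.5 and 10.8 CPM against 19.7, 19.2 and 20.6 CPM. RRM1, the large subunit of ribonucleotide reductase, was at 77.2, 34.5 and 42.8 CPM against 83.3, 94.7 and 84.0 CPM. Named actd library 1 was the highest of its group, and so nearest to named dmso, in 12 of the 13 members. Among all 1087 genes lower at the unadjusted threshold it was the highest of its group in 642.

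Genes of mitosis and the spindle were lower in 9 of 36 and higher in 0, with 31 below 0 and a median of -0.30 (background 5.14% and 4.17%). TPX2, which nucleates spindle microtubules, was at 72.9, 39.6 and 51.2 CPM against 86.7, 90.7 and 91.7 CPM, a difference of -0.72 ± 0.20 (adjusted p = 0.401 by edgeR). MKI67 was at 73.2, 49.9 and 59.1 CPM against 89.0, 81.2 and 92.1 CPM. TOP2A, the topoisomerase that untangles chromosomes, was at 256, 141 and 163 CPM against 255, 261 and 284 CPM, and its groups overlapped, with named actd library 1 at the vehicle level. This library was the highest of its group in 8 of the 9 members. Without it 22 of the list's members were lower at the unadjusted threshold, and without any other single library the count was 4 to 6.

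DNA repair and damage signalling genes were lower in 9 of 34 and higher in 0, with a median of -0.21 (background 5.14% and 4.17%). MSH6, a mismatch sensor, was at 146, 72.6 and 46.4 CPM against 175, 179 and 155 CPM, a difference of -0.94 ± 0.35 (adjusted p = 0.483 by edgeR). TOP1, the topoisomerase that relaxes DNA ahead of polymerases, was at 45.6, 14.8 and 18.9 CPM against 50.2, 46.9 and 47.8 CPM. PARP1, a sensor of strand breaks, was at 171, 125 and 154 CPM against 206, 218 and 253 CPM. Leaving out named actd library 1 gave 15 lower members and leaving out named actd library 2, named actd library 3 or named dmso library 1 gave 3, and leaving out named dmso library 2 gave 4.

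RNA polymerase I and ribosome biogenesis genes were lower in 6 of 40 and higher in 0, with a median of -0.17 (background 5.14% and 4.17%). Named actd library 1 was the highest of its group in all 6. The list's summed level was 4051, 3265 and 3602 CPM in named actd and 3933, 3951 and 4355 CPM in named dmso, so library 1 overlapped. UTP20, a factor of small-subunit assembly, was at 40.6, 20.4 and 24.7 CPM against 60.6, 62.1 and 46.3 CPM, a difference of -0.98 ± 0.25 (adjusted p = 0.371 by edgeR). POLR1A, the largest subunit of RNA polymerase I, was at 128, 89.6 and 98.3 CPM against 132, 126 and 135 CPM, with overlapping groups. Messages of ribosomal proteins stayed near 0: 1 of 47 large-subunit genes was higher (RPL14, median of the list 0.04), and 1 of 32 small-subunit genes (RPS16, median 0.03).

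ATF4 target genes were lower in 9 of 25 and higher in 0, with 19 below 0 and a median of -0.20 (background 5.14% and 4.17%). PCK2, the mitochondrial enzyme that makes phosphoenolpyruvate, was at 11.5, 10.1 and 10.96 CPM in named actd and at 18.1, 20.2 and 14.6 CPM in named dmso, a difference of -0.70 ± 0.15 (adjusted p = 0.344 by edgeR). PHGDH, the entry enzyme of serine synthesis, was at 125, 98.5 and 102 CPM against 145, 180 and 155 CPM. The groups did not overlap in either gene.

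SLC7A11, the cystine importer, was at 14.1, 9.88 and 13.1 CPM against 18.3, 23.7 and 17.2 CPM, a difference of -0.68 ± 0.18 (adjusted p = 0.389 by edgeR). ASNS was at 42.1, 30.1 and 43.2 CPM against 45.5, 60.5 and 55.5 CPM. All libraries of named actd were below all of named dmso for both genes, by a narrow margin for ASNS. Leaving out named actd library 2 gave 5 lower members, and leaving out named dmso library 2 gave 4. A fit over 18 RNA libraries gave 2.

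**Figure D3:**
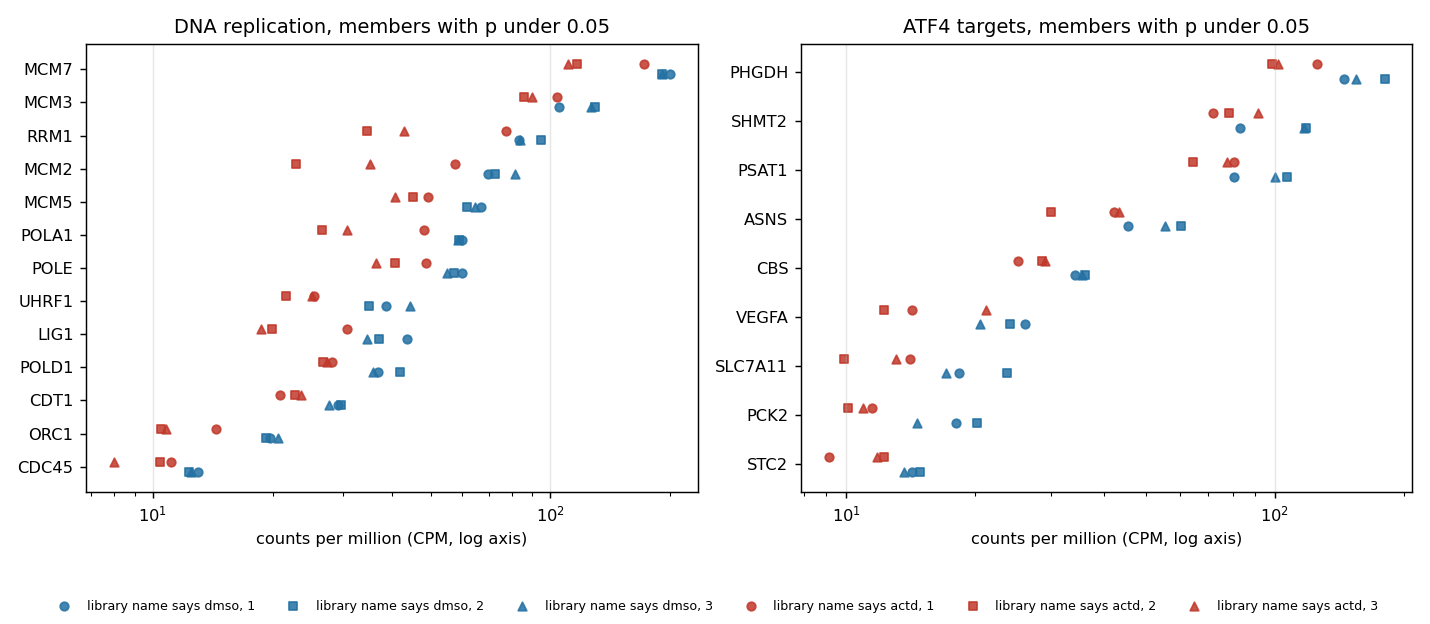
CPM on a log axis for members of the DNA replication list (left, 13 genes) and the ATF4 target list (right, 9 genes) with an unadjusted p under 0.05, 1 point per library (red, named actd, n = 3; blue, named dmso, n = 3). Red circles, named actd library 1, lie nearest to the blue points in most replication genes, as for RRM1 at 77.2 CPM beside 34.5 and 42.8 CPM.

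Endoplasmic reticulum chaperones were slightly higher, with 19 of 20 above 0 and a median of 0.21, but only 2 reached the unadjusted threshold. Over all 21137 genes 9886 lay above 0, and 4.17% were higher at that threshold. MANF, a secreted stress-response factor, was at 34.2, 34.6 and 37.8 CPM against 28.009, 26.6 and 26.03 CPM, a difference of 0.40 ± 0.11 (adjusted p = 0.389 by edgeR). PDIA3, a disulfide isomerase, was at 227, 222 and 244 CPM against 203, 194 and 134 CPM. Named dmso library 3 was the lowest for PDIA3 and for the list, whose summed level was 1827 CPM there and 2312 to 2855 CPM in the other libraries.

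Cholesterol synthesis and uptake genes, which SREBP factors drive, stayed near 0 apart from INSIG1, with a median of 0.02 over 28 genes, 2 higher and 1 lower. ACACA, the first enzyme of fatty acid synthesis, was at 187, 140 and 173 CPM against 216, 200 and 219 CPM.

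Mesenchymal and matrix genes were higher in 6 of 32 and lower in 0, with a median of 0.15 (background 4.17% and 5.14%). The list's summed level was 5457 CPM in named dmso library 3, below the 7673 to 8205 CPM of the other 5 libraries. CTGF, a matricellular protein and YAP target, was at 6.96, 11.7 and 12.6 CPM against 4.01, 5.14 and 6.43 CPM, a difference of 1.01 ± 0.26 (adjusted p = 0.378 by edgeR). CYR61, its close relative, was at 10.9, 16.3 and 17.3 CPM against 6.95, 6.94 and 8.88 CPM. COL1A1, a chain of type I collagen, was at 497, 554 and 607 CPM against 413, 436 and 346 CPM. The named actd libraries were the higher ones in each, and library 1 was the lowest of them.

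Genes of the p53 response lay on both sides: of 25, 4 were higher and 1 lower, with a median of 0.09 (background 4.17% and 5.14%). CDKN1A, the cell cycle inhibitor p21, was at 1.75, 2.48 and 2.07 CPM against 0.890, 1.12 and 1.44 CPM, a difference of 0.88 ± 0.27 (adjusted p = 0.421 by edgeR). MDM2, a ubiquitin ligase and target of the response, differed by 0.09 ± 0.14 and its groups overlapped.

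Proteasome subunits, 33 genes, had 0 higher and 0 lower at the unadjusted threshold and a median of 0.09. PSMB5, the subunit that proteasome inhibitors bind, was at 61.7, 91.1 and 81.3 CPM against 49.8, 89.0 and 96.5 CPM, with overlapping groups. NFE2L1, the factor that raises proteasome genes when proteasomes fail, was at 184, 212 and 204 CPM against 167, 144 and 141 CPM, a difference of 0.41 ± 0.12 (adjusted p = 0.407 by edgeR). Scaled by library totals, the medians of 12 of the 28 lists turned from above to below 0, among them the proteasome (-0.058), the p53 response (-0.058), the large-subunit (-0.10) and small-subunit (-0.12) ribosomal proteins, the nuclear respiratory chain subunits (-0.071) and the cholesterol genes (-0.12), while the median of all genes was -0.17.

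Wilms tumor and nephron progenitor genes were lower in 5 of 33 and higher in 1, with a median of -0.07 (background 5.14% and 4.17%). MYCN, an oncogene of anaplastic Wilms tumor, was at 91.1, 87.1 and 75.9 CPM against 98.4, 100.4 and 107.005 CPM, a difference of -0.27 ± 0.11 (adjusted p = 0.52 by edgeR). TRIM28, a corepressor and Wilms tumor gene, was at 150.7, 106.6 and 115.8 CPM against 169, 188 and 189 CPM. WT1, IGF2 and DROSHA had overlapping groups, with differences of 0.14, 0.28 and -0.07. The drug efflux pump ABCB1 was between 0.194 and 1.02 CPM with overlapping groups, and MYC did not pass the filter on low counts.

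Other lists held few members at the threshold, and their counts are to be read against 4.17% higher and 5.14% lower over all genes. Interferon-stimulated genes were higher in 2 of 25, IFI44L and USP18, and BCL2 family genes in 1 of 15, BID, which links death receptors to mitochondria, at 26.8, 23.9 and 24.4 CPM against 17.3, 18.9 and 22.1 CPM. NF-kB and senescence-associated genes were higher in 2 and lower in 3 of 17, and LMNB1, the lamin whose loss marks senescence, was at 113.5, 65.0 and 68.6 CPM against 110.7, 110.8 and 140.9 CPM, with overlapping groups. Heat shock genes had 0 of 18 in either direction and a median of -0.17. Immediate-early genes had 1 higher, DUSP6, a phosphatase of ERK, and 1 lower, FOSL2, a subunit of AP-1, of 21.

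**Figure D4:**
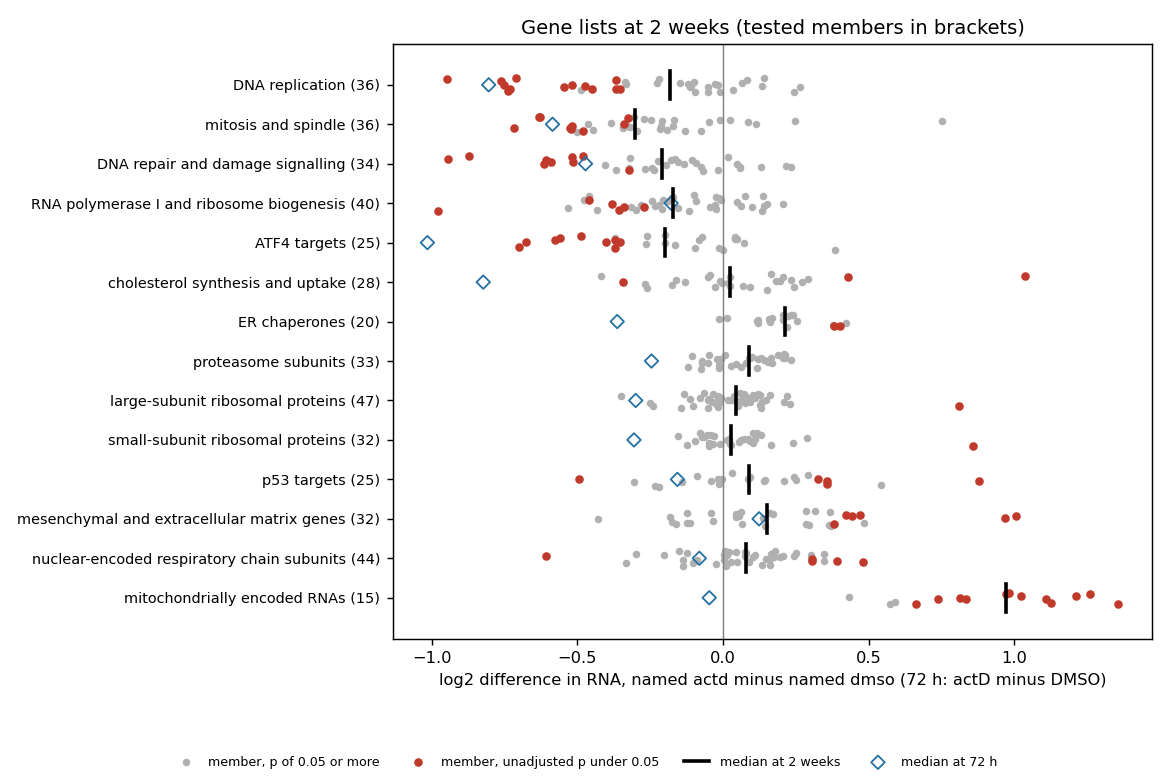
Log2 difference of each tested member of 14 gene lists at 2 weeks (dots; red, unadjusted p under 0.05), with the list's median (black bar) and its median at 72 h (open diamond). The mitochondrial RNAs have a median of 0.97 at 2 weeks and -0.05 at 72 h, and the ATF4 targets -0.20 and -1.01.

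Whether the effect itself differed between 2 weeks and 72 h of treatment was tested as the difference of both differences over 12 libraries. Of 23184 genes, 1 (0.00431%) had an adjusted p under 0.05 by edgeR, and 1983 (8.55%) had an unadjusted p under 0.05, 1064 (4.59%) higher and 919 (3.96%) lower at 2 weeks than at 72 h. Each time point was deposited on its own with its own controls, and only the 2-week cells ended on drug-free days, so time, data set and recovery cannot be told apart.

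ATF4 targets had a median of -0.20 at 2 weeks and -1.01 at 72 h, and 11 of the tested members had an interaction p under 0.05 with the 2-week value higher (background 4.59%). ASNS was at 11.8 ± 1.20 CPM in actD (SD, n = 3) against 100.3 ± 97.5 CPM with the vehicle at 72 h (SD, n = 3), a log2 difference of -3.08 beside -0.49 at 2 weeks. The interaction was 2.59 ± 0.70 (adjusted p = 0.427 by edgeR). The 72 h DMSO replicate 3 stood apart across the list: its summed level was 2853 CPM, against 1229 and 1173 CPM in the other DMSO libraries and 800.3 to 886.6 CPM in actD, and it was the highest library in 21 of 24 members. SLC7A11 had 1109, 834 and 8887 counts in the DMSO libraries. Without replicate 3 the interaction count was 9, and without replicate 2 it was 17.

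Cholesterol genes had a median of 0.02 at 2 weeks and -0.82 at 72 h, with 17 of 28 above in the interaction at the unadjusted threshold and 0 below. INSIG1 was at 16.5 ± 3.43 CPM in actD against 47.1 ± 22.3 CPM in DMSO at 72 h, so it lay below the control there and above it at 2 weeks. Its interaction was 2.54 ± 0.43 (adjusted p = 0.133 by edgeR). SCD, the desaturase that makes oleate, differed by -0.89 at 72 h and by 0.20 at 2 weeks, an interaction of 1.08 ± 0.22 (adjusted p = 0.274). ER chaperones had 9 of 20 above and 0 below.

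PGPEP1 went the other way, from 10.9 ± 0.752 CPM against 5.55 ± 3.27 CPM at 72 h to lower values at 2 weeks, an interaction of -2.96 ± 0.54 (adjusted p = 0.219 by edgeR). RYR2 was lower at both times, by 1.15 at 72 h and 1.18 at 2 weeks, with an interaction of -0.05 ± 0.30. DNA replication genes had a median of -0.80 at 72 h, and 6 of 36 were above in the interaction, 25 without 72 h DMSO replicate 3, 2 without 72 h DMSO replicate 1, and 3 without 72 h DMSO replicate 2 or 72 h actD replicate 1 or 3. Mitosis genes had a median of -0.58 at 72 h and 0 of 36 in either direction. Mitochondrial RNAs had a median of -0.05 at 72 h, with 7 of 15 above. That count was 1 without named actd library 3, 3 without named dmso library 1 or 2, 2 without 72 h DMSO replicate 1, and 4 without 72 h DMSO replicate 2 or 72 h actD replicate 3.

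Long genes were lower as a class. Protein-coding genes with at least 5 CPM in 1 group were grouped by their length on the genome, introns included. Of 366 genes over 300 kb, 124 (33.9%) were lower at the unadjusted threshold and 9 (2.46%) higher, with a median of -0.23. The lower count was 54 in a fit over 18 RNA libraries, 82 without named actd library 2 and 194 with libraries scaled by their totals. Of 792 genes under 5 kb, 24 (3.03%) were lower and 59 (7.45%) higher, with a median of 0.04, and the share of lower genes was larger in each longer class. Of the 10 lower genes with the smallest p, 3 were over 300 kb (RYR2, KIF26B and SND1), and of the 10 higher genes 0 were.

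In the class over 300 kb the median deviation of a library from the mean of the 6 libraries was -0.03, -0.21 and -0.09 in named actd and 0.12, 0.10 and 0.17 in named dmso. The groups did not overlap in this class, whereas they did in the class of 30 to 100 kb. The same class had a median of -0.61 at 72 h and -0.17 at 6 h. Across 10866 genes the correlation of the difference with the logarithm of length was weak, with Pearson's r of -0.17, given as a description because genes are not independent replicates.

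**Figure D5:**
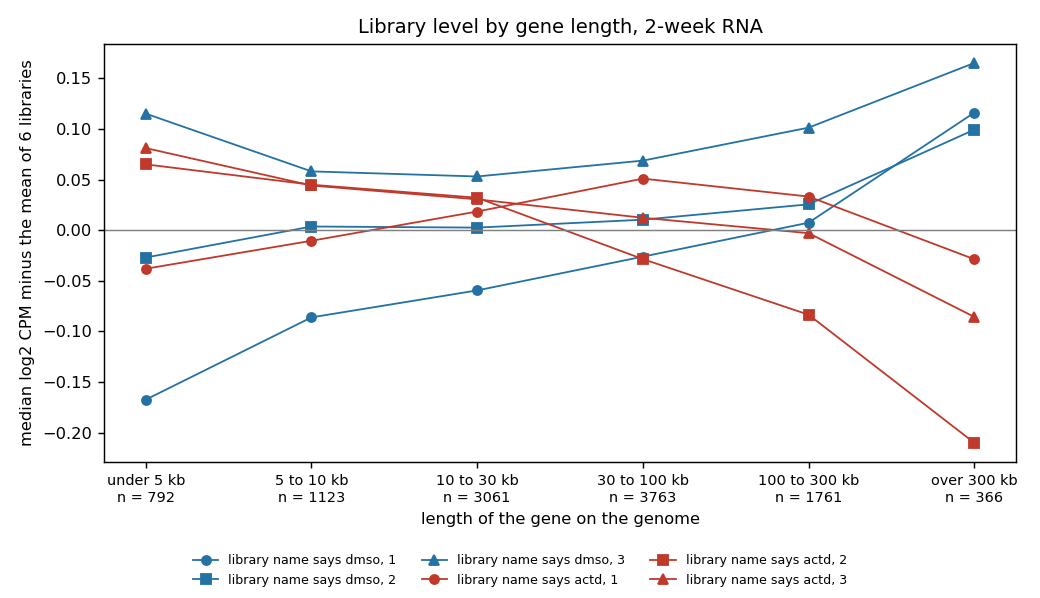
Median deviation of each library's log2 CPM from the mean of the 6 libraries, by length of the gene on the genome; each line is a library (red, named actd, n = 3; blue, named dmso, n = 3). The red lines end at -0.03 to -0.21 and the blue lines at 0.10 to 0.17 in the class over 300 kb.

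Footprint libraries of the same 2-week treatment carry labels that do not contradict each other. Of the protein-coding genes with at least 5 CPM that were higher in named actd at the unadjusted threshold and also tested in footprints, 56 of 62 had a footprint difference above 0 in actD against DMSO, and of those lower, 125 of 139 lay below 0. Over all 1315 such genes tested in both, 51.9% lay above 0 in footprints and 68.1% had the same sign in both. In the 72 h RNA, whose labels do not contradict each other either, 374 of 585 of the higher genes lay above 0 and 702 of 785 of the lower genes below 0, where 40.8% of 10858 genes lay above 0 and 62.1% had the same sign. Across the 1315 genes the footprint and RNA differences correlated with r = 0.51, as a description. With the titles in place of the library names, each of these RNA differences would carry the opposite sign. Single genes varied. The footprint difference was -1.44 for MSH6 (adjusted p = 0.518 by edgeR), -1.43 for MKI67 and 0.43 for MT-CO1. Their RNA differences were -0.94, -0.53 and 0.66. In footprints MYCN differed by 0.22, NDUFV1 by 0.04 and TRIM28 by -0.08, beside RNA differences of -0.27, -0.61 and -0.55. Footprint medians were 0.09 for 7 DNA repair, 0.01 for 12 RNA polymerase I and ribosome biogenesis, and -0.51 for 2 DNA replication genes. The RNA medians of these lists were -0.21, -0.17 and -0.18. Whether footprints and RNA came from the same cultures is not stated in the labels.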

How the data were processed

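Total RNA of 6 WiT49 libraries was analysed, 3 per group, with groups taken from the library names. The authors deposited estimated counts (expected counts) per gene, already whole numbers. HISAT2, StringTie and hg38 are named in the submitters' processing notes; their versions, the annotation, strand use and filters are not given in the sources used here. Small values pile up at multiples of 2.67 counts (1.19 times their neighbours), so what 1 fragment was worth is not known. Of 58219 identifiers, 99.4% matched GENCODE release 29 without the version. Symbols and coordinates (GRCh38) come from it.

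Counts were fitted with edgeR 4.0.16 (R 4.3.3; limma 3.58.1) using quasi-likelihood F tests (two-sided), TMM scaling, filterByExpr and Benjamini-Hochberg adjustment, threshold 0.05. CPM values use the TMM library sizes. The 72 h interaction used 12 libraries in 1 model. DESeq2 1.42.0, other scalings and filters, a replicate block, and leaving out each library were alternatives. Figures used matplotlib 3.10.9. On data simulated for the 2-week comparison, 70 of 100 genes changed 2-fold and 100 of 100 changed 4-fold were recovered over 20537 genes, with 13 false calls. For the interaction it was 5 and 72 of 100 over 22515 genes, with 4 false calls. In both, changed genes were drawn only from those with a mean of at least 5 CPM. Counts were drawn independently, without shifts shared by the genes of a library, so recovery in the real data can differ. With 3 libraries against 3 an exact permutation test cannot go below 0.1.

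Named genes were the 10 protein-coding genes per direction with the smallest p (at least 5 CPM in 1 group, no overlap), the 3 other genes likewise, the extreme members of each list, the leading DESeq2 and interaction genes, those with 1 library far from the other 5, and a set of reference genes; other list members were chosen as examples after their values were seen. Gene lists, motifs and members were chosen with earlier results of these data known. Some genes are not reported here.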

Additional observations from a re-analysis of the deposited data

Results flagged for a closer look

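AC011511.1, a protein-coding gene model on chromosome 19, was the 1 gene whose difference at 2 weeks departed from that at 72 h after adjustment. The 2-week difference minus the 72 h difference was -5.82 on the log2 scale (adjusted p = 0.00368 by edgeR). It had 61, 87 and 39 counts in the 2-week named actd libraries and 88, 61 and 105 in named dmso. At 72 h it had 78, 74 and 41 counts in actD and 1, 1 and 2 in DMSO, so the 72 h DMSO libraries stand apart. Without 72 h DMSO replicate 3 the adjusted p was 0.0546, and over the other alternatives it ran from 6.31e-07 to 0.0429.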

How the results depend on the processing

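Taking direction from the sample titles turns every difference around and exchanges the counts (1087 higher, 882 lower at the unadjusted p). Under the other alternatives the medians of 12 of 28 gene lists changed sign with library totals, all 12 of them above 0 with TMM scaling. The number of genes with an adjusted p under 0.05 was 0 by edgeR and stayed 0 under 7 alternatives, but was 189 with DESeq2, 5 with a robust spread (CLDN22, INSIG1, LPAR6, PGPEP1 and RYR2), and 2 to 34 without 1 library, 34 without named actd 1. Library totals without TMM gave 306 higher and 2559 lower genes at the unadjusted p, and leaving out 1 library gave 514 to 1452 higher (514 without named actd 3, 1452 without named dmso 3) and 642 to 1702 lower (642 without named actd 3, 695 without named dmso 2, 1702 without named dmso 3). Library totals also gave 194 lower genes over 300 kb, 23 lower mitosis and 15 lower DNA repair genes, and medians of -0.058 (proteasome), -0.058 (p53), -0.33 (DNA replication), -0.35 (ATF4), -0.36 (DNA repair) and -0.38 (over 300 kb). A single fit over 18 RNA libraries gave 54 lower genes over 300 kb, 5 DNA replication, 2 mitosis, 2 ATF4 and 5 DNA repair. Without 1 library these counts ran from 82 (without named actd 2) to 130 over 300 kb, 10 to 17 for DNA replication, 4 to 22 for mitosis, 4 to 9 for ATF4 and 3 to 15 for DNA repair. The medians ran from -0.021 (without named dmso 1) to 0.21 for p53 and from -0.34 to -0.14 for ATF4. Mitochondrial RNAs kept 9 to 15 of 15 members higher over all alternatives. The interaction with 72 h gave 142 genes with DESeq2 and 1 to 16 without 1 library (16 without 72 h actD 3). The cause of these shifts was not tested.

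The replicate block gave 1 gene at 2 weeks (MT-TC, lower) and 2 in the interaction (MT-TC and AC011511.1). It raised the interaction counts of mitochondrial RNAs and of DNA replication genes to 11 each, and moved no other count by over 1.5 times. The list counts of the interaction under alternatives were added after seeing the data. Deviations of same-numbered libraries correlated at 0.08, -0.0037 and 0.18, so the numbers were not taken to pair the libraries.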

Other observations

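Single libraries stood far from the other 5 in a few genes. Of 11540 genes, 37 had 1 library at least 4-fold from the nearest of the others, 31 below and 6 above, with 10 below and 2 above in named actd library 3. FAM156B (862 and 1244 counts in the other named actd libraries), BOLA2 and ZBTB8B were listed at 0 in that library. SIK1 was listed at 0 in named actd library 1 and had 368 to 517 counts elsewhere. SNORA73A had 9 counts and CDRT4 had 13 counts in named actd library 2. FAM156B, BOLA2 and SIK1 have near-identical copies in the genome, so their counts are uncertain.

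Small RNA classes were counted in the same way. Of 15 tested scaRNA genes, guides for modification of spliceosomal RNA, 7 were lower and 0 higher at the unadjusted threshold, and of 131 snoRNA genes 11 were lower and 0 higher (background 5.14% and 4.17%). Protein-coding genes were lower in 904 and higher in 765 of 14620, snRNA genes lower in 4 and higher in 3 of 56, and miRNA genes lower in 1 and higher in 0 of 49. No difference between classes was tested. Replication-dependent histone genes, 65 tested, had 2 higher and 1 lower, with 48 below 0 and a median of -0.07. Of 36 DNA replication genes, 13 were lower and 29 lay below 0. Over all 21137 genes 9886 lay above 0.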
